A study of Mus musculus with 12 samples.

Results

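Heat shock proteins and their J-domain partners were described in the ventral hippocampus of wild-type (WT) and Angelman syndrome (AS) mice. The members are the protein-coding genes whose mouse symbol starts with Hspa, Hspb, Hspd, Hspe, Hsph, Hsp90a, Dnaja, Dnajb or Dnajc, without Hspa5 and Dnajb11. The annotation holds 71 such genes, and 58 of them had a row among the 13951 of the table. The other 13 were not analysed here, among them Hspa14, Hspb2, Hspb3 and Hspb7. The rule goes by name, so it also kept 11 members of the endoplasmic reticulum, and 2 that only share the prefix: Hspbp1, an exchange factor, and Hspb11, a protein of intraflagellar transport.

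Polyadenylated RNA was sequenced from 12 C57BL/6J mice aged 12 to 16 weeks, 1 library per mouse, all with lane number 7. The groups were WT females, AS females, WT males and AS males, with 3 mice each. Tissue was taken from the ventral end of the right hippocampus. No treatment is labelled, and the labels do not state which mutation the AS mice carried; in patients the syndrome arises when neurons lack the ubiquitin ligase UBE3A. The study concerns phenotypes that depend on sex, so genotypes were compared within each sex and across both. Replicate numbers 1 to 3 were given in accession order and only name the mice. Values are log2(abundance + 1), called log2 levels below, from the deposited table read as natural logs of a length-scaled abundance, and their read depth is unknown. Were its base 2 instead, the log2 differences printed here would shrink to 0.693 of their size.

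Heat shock proteins are chaperones: they bind unfolded or aggregation-prone proteins and help them fold, move or be degraded. HSP70 proteins bind and release clients with ATP, J-domain proteins (DNAJ) deliver the clients and speed up ATP use, exchange factors such as HSP110 reset the cycle, and HSP90 takes over clients such as kinases and receptors. Under heat or protein damage the transcription factor HSF1 binds inverted repeats of GAA and TTC in promoters and raises a subset of these genes. Neurons express large amounts of the constitutive members at rest, and synapses use them to recycle vesicle proteins. In mitochondria, HSP70 and the HSP60–HSP10 chaperonin fold imported proteins.

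The promoters below are shown because they belong to low, stress-inducible members described further on and hold such repeats. They are the 250 bases before the RefSeq start of the inducible HSP70 genes and of the small heat shock gene Hspb1 (RefSeq, GRCm38.p6), each written in the direction of the gene. Capitals mark a pair of facing units, GAANNTTC or TTCNNGAA, where N is any base.

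Hspa1a, chr17:34972157-34972406, minus strand: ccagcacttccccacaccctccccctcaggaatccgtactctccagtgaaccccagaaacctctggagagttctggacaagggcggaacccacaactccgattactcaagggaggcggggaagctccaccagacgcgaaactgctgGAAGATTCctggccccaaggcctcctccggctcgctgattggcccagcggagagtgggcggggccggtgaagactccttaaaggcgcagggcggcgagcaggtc
Hspa1b, chr17:34959239-34959488, minus strand: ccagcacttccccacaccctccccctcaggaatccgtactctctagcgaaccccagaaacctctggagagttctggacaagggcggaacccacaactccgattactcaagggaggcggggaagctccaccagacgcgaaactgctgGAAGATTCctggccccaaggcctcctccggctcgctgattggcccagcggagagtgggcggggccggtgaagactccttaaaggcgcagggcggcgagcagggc
Hspb1, chr5:135887669-135887918, plus strand: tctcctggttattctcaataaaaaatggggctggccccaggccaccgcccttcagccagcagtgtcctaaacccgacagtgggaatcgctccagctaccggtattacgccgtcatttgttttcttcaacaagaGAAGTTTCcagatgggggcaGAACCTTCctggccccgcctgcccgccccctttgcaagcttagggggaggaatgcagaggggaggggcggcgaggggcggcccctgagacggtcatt

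The Hspa1a and Hspa1b promoters have 247 of 250 bases in common (98.8%) and hold 1 pair each, at the same distance from the start. The Hspb1 promoter holds 2 pairs. Hspd1 and Hspe1, the genes of the mitochondrial chaperonin, face away from each other with 215 bases between their RefSeq starts. That stretch holds 3 overlapping pairs, shown here within 30 bases.

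Hspd1 to Hspe1, chr1:55088053-55088082, plus strand: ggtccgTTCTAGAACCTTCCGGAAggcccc

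Windows of 300 bases, from 250 before to 50 after each start, were searched on both strands for the same pair. Of 47 members with a promoter in the table, 14 held one (29.8%), against 13.9% of the 10303 tested genes with a promoter and 17.0% of all 27025 genes with one. Among inducible members 7 of 8 held a pair, with Dnajb1 the exception, and among constitutive members 1 of 7, Dnajb6. At least 3 units in a row contain the pair: GAA, TTC and GAA, or TTC, GAA and TTC, with any 2 bases between neighbours. They stood in 4 of 47 members (8.51%), Dnajb6, Hspd1, Hspe1 and Hsph1. The share was 0.553% of tested genes and 0.662% of all genes with a promoter. Hspd1 and Hspe1 share the site shown above, so it is counted for both genes, here and among the pairs. These are matches of letters and do not show binding. The promoters of 11 members, among them Hsp90aa1, Hspa8 and Hsp90ab1, were not searched.

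The libraries were checked before the members were compared. Excitatory neuron markers were detected, with a mean log2 level of 5.55 to 5.93 over 10 genes. This list does not test which brain region was taken. Choroid plexus genes, which mark tissue next to the hippocampus, averaged 3.08 to 5.33 over 16 genes in 4 libraries (WT female 1, WT female 2, AS female 2 and AS male 2) and 1.27 to 1.76 in the other 8. Sex-linked transcripts went with the label in 11 libraries. In WT female 1, Xist stood at 0.35, against 6.00 to 6.44 in the 5 other females and 0.17 to 0.52 in males. The mean of 4 Y-linked genes was 0.68 in WT female 1 and at least 3.86 in the male libraries. For the members described at most length, values are also given without the 4 libraries high in choroid plexus genes or without single libraries. Leaving out the 4 libraries keeps WT female 3 as the only WT female. Values without them, except AS minus WT in males, thus rest on that 1 library for WT females. In whole tissue, fewer cells of a type and less RNA per cell cannot be told apart.

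The members spanned nearly the whole range of abundance in the tissue. The inducible members were spread over much of it, while the constitutive members all lay in its upper part. Of the 10 constitutive members, Dnajb2 at 22.1 and Hspa2 at 23.8 were the lowest, above 66.9% and 68.7% of the tested genes, and the other 8 lay above at least 91.8% of them. The inducible HSP70 genes Hspa1a and Hspa1b lay above 23.3% and 30.1% of genes, while the inducible Hsp90aa1 and Dnaja1 lay above 99.5% and 98.0%. Hspa8, the constitutive HSP70 that uncoats clathrin vesicles, had a mean abundance of 1034 (range 914 to 1155 over 12 libraries). Hsp90ab1, the constitutive HSP90, followed at 851 (808 to 883), and their ranges do not overlap. Hsp90aa1, the inducible HSP90, came next at 603 (530 to 694).

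Dnaja1, a main J-domain partner of cytosolic HSP70, had a mean abundance of 242 (208 to 268). A group of members then had overlapping ranges: Dnajb6 at 131, Dnajc7 at 127, the exchange factor Hsph1 at 125, Hspe1 at 119 and Hspd1 at 114. At the low end stood Hspa1b at 6.20 (5.08 to 7.96), Hspb1 at 6.04 (3.73 to 10.0) and Hspa1a at 4.61 (3.65 to 5.99). The lowest member was Hspa12b, an HSP70 relative known from endothelium, at 1.60, which 4.22% of the tested genes lay below. All 58 members passed the filter of a mean abundance of at least 1.

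**Figure D1:**
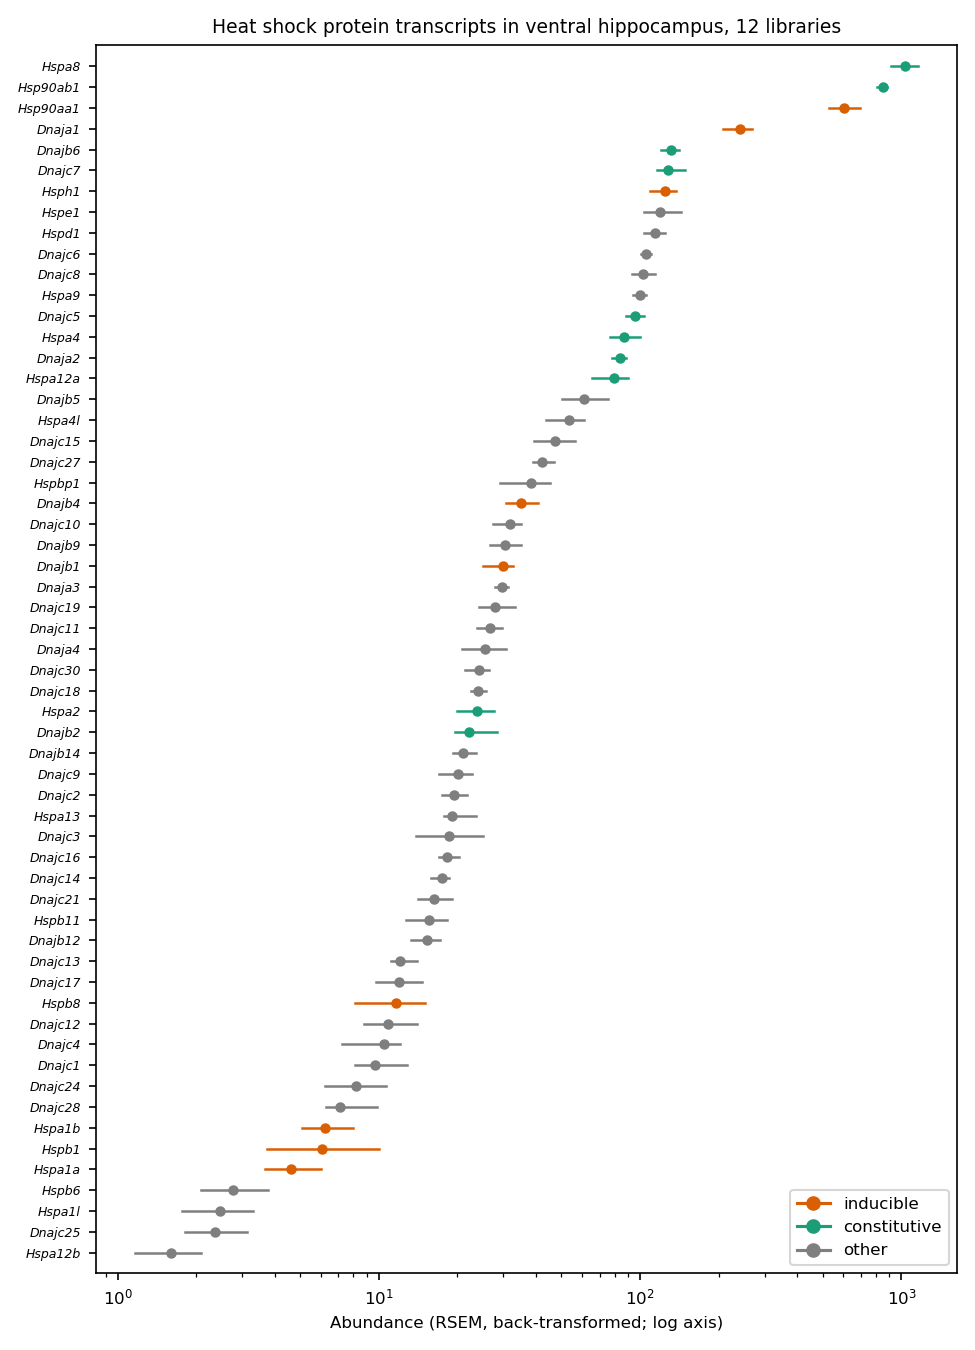
Abundance of the 58 members on a log axis, with the mean (point) and the range over 12 libraries (line), coloured by class. Hspa8, Hsp90ab1 and Hsp90aa1 stand at the top, at 1034, 851 and 603, and Hspa1b, Hspb1 and Hspa1a lie between 4.61 and 6.20.

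The spread between mice of a group differed widely among members of both classes. The median within-group SD of the log2 level was 0.098 for the 10 constitutive members and 0.13 for the 9 inducible ones, against 0.14 over all genes tested, and the classes overlapped. These SDs were not matched for abundance, in which the classes also differ. The constitutive Dnajb2 and Hspa2, at 0.16 and 0.14, lay above the inducible median, and the inducible Dnaja1, at 0.091, lay below the constitutive one. Hsp90ab1 had a within-group SD of 0.043, and 0.851% of genes had a smaller one. The synaptic J-domain gene Dnajc6, the auxilin that works with HSP70 on clathrin coats, had a lower SD still, 0.037 (0.361% of genes below). Hspb1, at 0.32, varied more than 90.3% of genes, and Hspb8, another small heat shock gene, at 0.28 more than 87.5%.

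Between genotypes no member passed the test. Over both sexes 0 of 58 members had an adjusted p under 0.05 (limma, Benjamini-Hochberg over 13858 genes), as did 0% of all genes tested. At an unadjusted p under 0.05 there were 4 lower members, Hspe1, Hspb1, Hspa1b and Dnaja4, and 1 higher, Dnajc27. Over all genes 2.58% were lower and 2.77% higher at that level, so 4 of 58 lower members is above and 1 of 58 higher is below the share of all genes. In no member did the 6 AS libraries lie clear of the 6 WT libraries, while 0.361% of genes had that pattern.

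Of the 58 members, 32 were lower in AS over both sexes, with a median log2 difference of -0.01, against 47.3% of all genes and a median of 0.01. Of the 9 inducible members, all 9 had a difference below 0, with a median of -0.09 and a range of -0.44 to -0.004. Of the 10 constitutive members 4 were below 0, with a median of 0.02 and a range of -0.11 to 0.10. No test of these classes was made. Of the 9 inducible members 2 had an unadjusted p under 0.05, Hspb1 and Hspa1b, and none of the 10 constitutive members had an unadjusted p under 0.05.

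The mean log2 level of the inducible members was 5.22, 5.11 and 5.22 in WT females 1 to 3 and 5.02, 5.13 and 5.02 in AS females 1 to 3. It was 5.13, 5.15 and 5.18 in WT males 1 to 3 and 5.00, 5.12 and 4.97 in AS males 1 to 3. AS female 2 and AS male 2, the AS libraries high in choroid plexus genes, were the AS libraries nearest to WT. The constitutive mean ran from 6.83 to 6.91 in WT and from 6.85 to 6.91 in AS libraries, so these ranges overlap almost wholly. Without the 4 libraries high in choroid plexus genes, 7 of 9 inducible members stayed below 0, with a median of -0.13, and Hspa1a and Dnajb1 turned to 0.0042 and 0.0064.

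Markers of cell types were compared between genotypes in the same way, and no test of these lists was made. None of the lists held a gene that passed the test over both sexes. For each list given here the mean levels of WT and AS libraries overlapped. All 10 inhibitory neuron markers were below 0 over both sexes, with a median of -0.10, and their mean log2 level ran from 5.72 to 5.97 in WT and from 5.60 to 5.82 in AS libraries. All 16 choroid plexus markers were below 0, with a median of -0.24, a median of -1.01 in females and one of 0.48 in males. All 12 oligodendrocyte markers were above 0, with a median of 0.13 and mean levels of 5.53 to 6.32 in WT and 5.74 to 6.38 in AS libraries. Of the 12 endothelial markers 8 were below 0, with a median of -0.05, and of the 10 excitatory neuron markers 5, with a median of 0.003. The part of these cell types in the values of the heat shock genes was not tested.

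**Figure D2:**
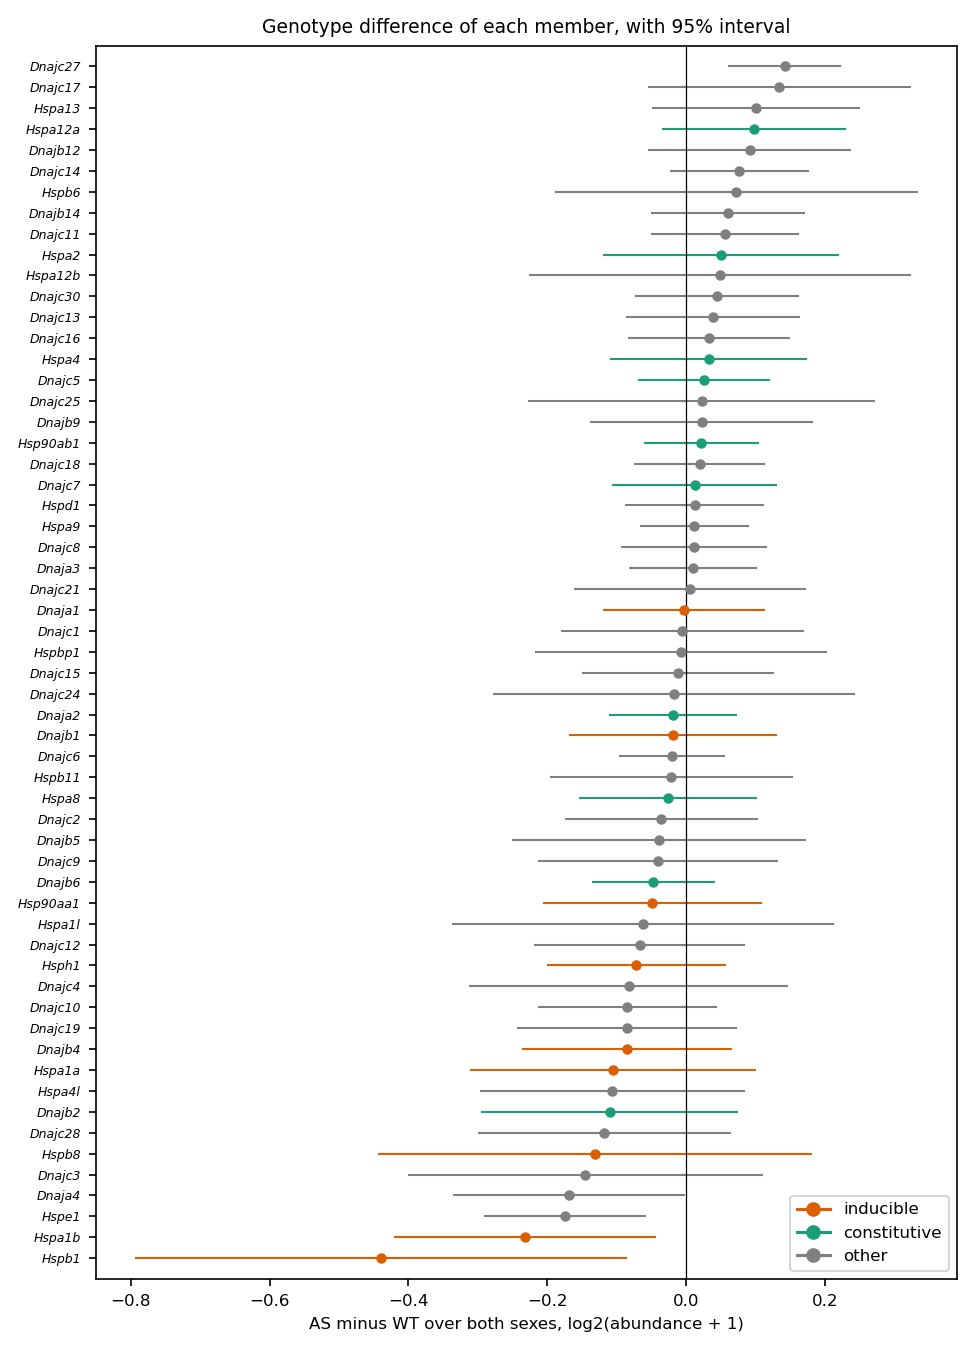
AS minus WT over both sexes for each of the 58 members (points) with its 95% interval (lines), on the log2(abundance + 1) scale and coloured by class. All 9 inducible members lie below 0, and the intervals of 2 of them, Hspb1 and Hspa1b, do not reach 0, before any adjustment for the number of genes.

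Among the cytosolic HSP70 genes, Hspa1b showed the larger difference. Hspa1b (ENSMUSG00000090877, chromosome 17, 34956436 to 34959238, minus strand, GRCm38) encodes the stress-induced HSP70. Its log2 level was 3.16, 2.81 and 2.69 in WT females 1 to 3 and 2.68, 2.69 and 2.86 in AS females 1 to 3. It was 2.90, 3.08 and 3.08 in WT males 1 to 3 and 2.78, 2.71 and 2.60 in AS males 1 to 3. All AS males lay below all WT males, while the female groups overlapped. The difference was -0.23 ± 0.09 over both sexes (SE, 6 mice per genotype, limma adjusted p = 0.893), -0.14 ± 0.12 in females and -0.32 ± 0.12 in males (adjusted p = 0.763). Without WT female 1, the highest library and the one with male-level Xist, it was -0.16 over both sexes and -0.0062 in females. Over both sexes it was -0.13 without the 4 libraries high in choroid plexus genes. The female difference there turned to 0.07, against WT female 3 alone, the lowest WT female.

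Hspa1a (ENSMUSG00000091971, chromosome 17, 34969190 to 34972156, minus strand) lies beside Hspa1b and encodes nearly the same protein. Its log2 levels ran from 2.41 to 2.81 in WT and from 2.22 to 2.62 in AS libraries, and the groups overlapped in both sexes. The difference over both sexes was -0.11 ± 0.09 (adjusted p = 0.953). Of the 100-base windows of the longest Hspa1b transcript, 49.9% also occur in Hspa1a, so how reads were divided between these genes is uncertain. The sum of both genes differed by -0.10 in females, -0.28 in males and -0.19 over both sexes on the log2(summed abundance + 1) scale.

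Hspa8 had log2 levels of 9.89 to 10.18 in WT and 9.84 to 10.11 in AS libraries, a difference of -0.03 ± 0.06 with a 95% interval of -0.16 to 0.10. Hspa2, a constitutive HSP70 best known from testis, differed by 0.05 ± 0.08, and Hspa1l by -0.06 ± 0.13. Hspa12a, an HSP70 relative abundant in brain, differed by 0.10 ± 0.06 (adjusted p = 0.927), the largest difference of a constitutive member in the higher direction. Its female difference, 0.11 ± 0.09, turned to -0.02 without the 4 libraries high in choroid plexus genes.

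Hspb1 had the largest difference of all members, and its libraries scattered widely. Hspb1 (ENSMUSG00000004951, chromosome 5, 135887919 to 135889563, plus strand) encodes HSP27, a small heat shock protein that holds unfolded proteins and stabilises actin. Its log2 level was 2.96, 2.82 and 2.86 in WT females 1 to 3 and 2.27, 3.13 and 2.40 in AS females 1 to 3. It was 3.46, 2.76 and 3.09 in WT males 1 to 3 and 2.24, 2.77 and 2.51 in AS males 1 to 3. The highest library was WT male 1, the lowest AS male 1, and AS female 2 lay above all WT females, so the groups overlap in both sexes.

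The Hspb1 difference was -0.44 ± 0.16 over both sexes (adjusted p = 0.893), -0.28 ± 0.23 in females and -0.60 ± 0.23 in males (adjusted p = 0.763). It was -0.35 without WT male 1, -0.57 without AS female 2 and -0.63 without the 4 libraries high in choroid plexus genes. The female difference ran from -0.55, without AS female 2, to -0.12, without AS female 1. The same libraries, WT male 1 and AS female 2, ranked highest for vascular and meningeal genes. The mean log2 level of 12 endothelial genes was 3.64 and 3.58 in them and 3.19 to 3.52 in the others, that of 9 meningeal fibroblast genes was 3.56 and 3.51 against 1.93 to 3.40, and that of 7 mural genes was 3.42 and 3.10 against 2.77 to 3.06. The part of these cells in the Hspb1 difference was not tested.

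Hspb8, which works with BAG3 in chaperone-assisted autophagy, ran from 3.29 to 3.96 in WT and from 3.18 to 4.00 in AS libraries. Its difference was -0.13 ± 0.14, with AS female 2 and AS male 2, at 4.00 and 3.92, above all WT libraries of their sex. It was -0.38 without the 4 libraries high in choroid plexus genes and ran from -0.23, without AS male 2, to -0.05, without AS male 3. Hspb6, a small heat shock gene of muscle and astrocytes, differed by 0.07 ± 0.12.

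Of the HSP90 and HSP110 genes none had an unadjusted p under 0.05. Hsp90aa1 ran from 9.05 to 9.44 in WT and from 9.08 to 9.33 in AS libraries, a difference of -0.05 ± 0.07. It was -0.17 without the 4 libraries high in choroid plexus genes and ran from -0.09, without WT male 1, to -0.0065, without WT male 3. Hsp90ab1 differed by 0.02 ± 0.04 with an interval of -0.06 to 0.10. Hsph1, the inducible HSP110, differed by -0.07 ± 0.06, Hspa4 by 0.03 ± 0.06 and Hspa4l by -0.11 ± 0.09.

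All 8 J-domain members of the DNAJA and DNAJB type in cytosol and nucleus had a difference below 0 over both sexes, against 47.3% of all genes. Their median was -0.04. The number was 8 of 8 in females, with a median of -0.09, and 5 of 8 in males, with a median of -0.01. The shares over all genes were 48.4% in females and 47.6% in males. Dnaja1, Dnajb1 and Dnajb4 were already counted above as inducible members, and no test of this group was made. Only Dnaja4 reached an unadjusted p under 0.05, at -0.17 ± 0.08 (adjusted p = 0.914). Its log2 levels ran from 4.61 to 4.98 in WT and from 4.44 to 4.78 in AS libraries and overlap. The inducible Dnajb4 differed by -0.09 ± 0.07, Dnajb1 by -0.02 ± 0.07 and Dnaja1 by -0.004 ± 0.05. The constitutive Dnajb2, a neuronal J-domain gene, differed by -0.11 ± 0.08, Dnajb6, which suppresses aggregation, by -0.05 ± 0.04, and Dnaja2 by -0.02 ± 0.04. Leaving out 1 library moved Dnaja1 between -0.04 and 0.03 and Dnajb1 between -0.07 and 0.01, so neither kept its direction.

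**Figure D3:**
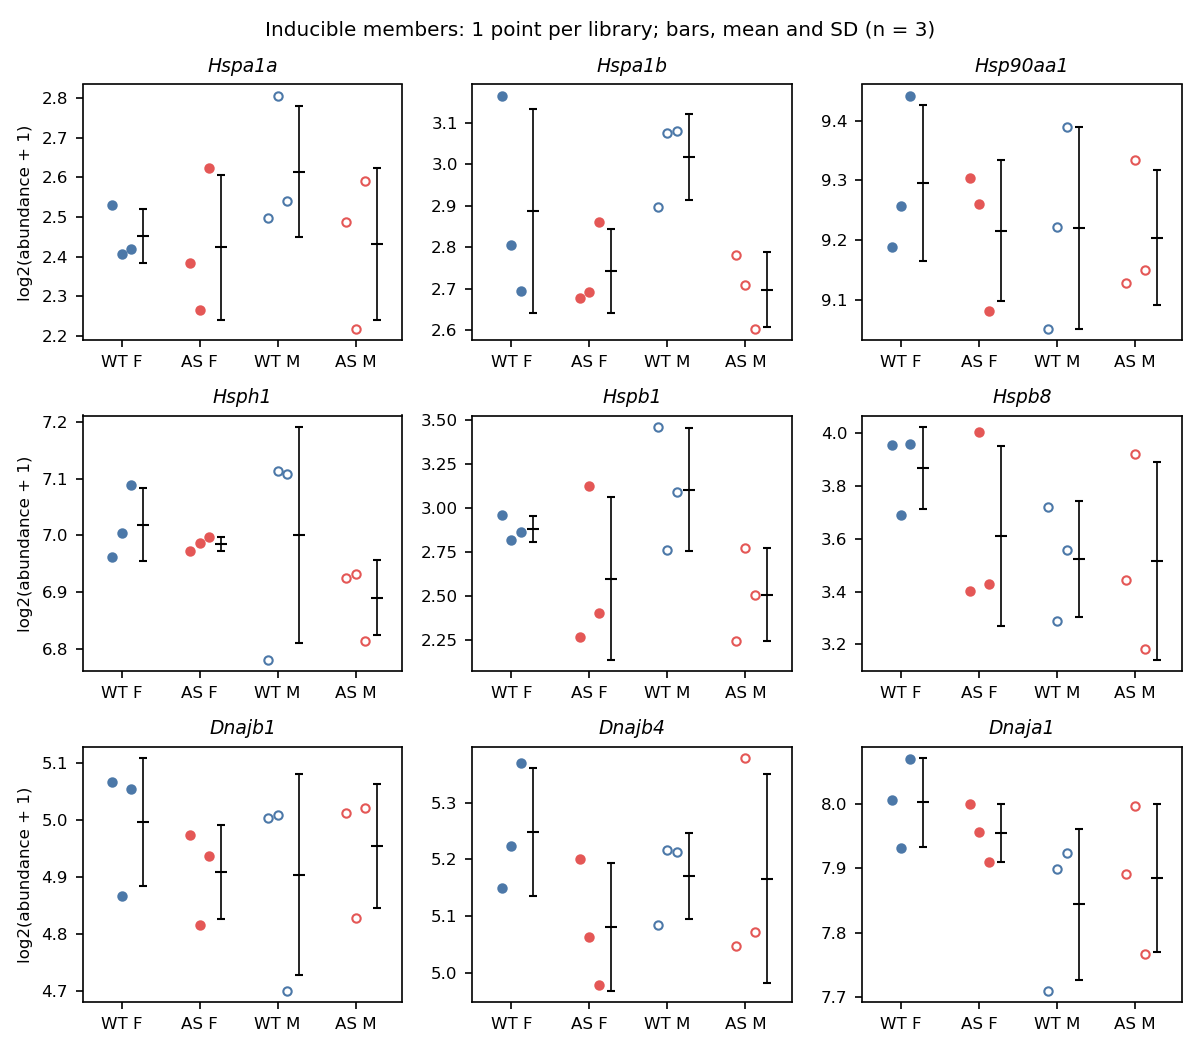
Log2 levels of the 9 inducible members, 1 point per library, with mean and SD (n = 3) beside each group; filled points are females, open points males, blue WT and red AS. In males all AS points of Hspa1b, 2.60 to 2.78, lie below all WT points, 2.90 to 3.08, and the groups of the other 8 members overlap in each sex.

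Of the mitochondrial pair that forms the chaperonin, Hspe1 had an unadjusted p under 0.05 and Hspd1 did not, and neither passed after adjustment. Hspe1 (ENSMUSG00000073676, chromosome 1, 55088132 to 55091307, plus strand) encodes HSP10, the lid of the chaperonin. Its log2 level was 6.96, 6.93 and 7.17 in WT females 1 to 3 and 6.98, 6.81 and 6.79 in AS females 1 to 3. It was 6.98, 6.98 and 6.94 in WT males 1 to 3 and 6.82, 6.70 and 6.81 in AS males 1 to 3. AS males lay below WT males with no overlap, and AS female 1 lay within the WT females.

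The Hspe1 difference was -0.17 ± 0.05 over both sexes (adjusted p = 0.758), -0.16 ± 0.08 in females and -0.19 ± 0.08 in males (adjusted p = 0.763). It lay between -0.21 and -0.14 with any 1 library left out and at -0.22 without the 4 libraries high in choroid plexus genes. The female difference was -0.09 without WT female 3 and -0.29 without those 4 libraries, where WT female 3 is the only WT female. Hspd1 (ENSMUSG00000025980, chromosome 1, 55077835 to 55088243, minus strand) encodes HSP60, the barrel that this lid closes. Its log2 level was 6.86, 6.88 and 6.93 in WT females 1 to 3 and 6.81, 6.90 and 6.81 in AS females 1 to 3. It was 6.70, 6.81 and 6.86 in WT males 1 to 3 and 6.82, 6.97 and 6.79 in AS males 1 to 3, so the groups overlap.

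The Hspd1 difference was 0.01 ± 0.05 over both sexes, with an interval of -0.09 to 0.11 (adjusted p = 0.989). Whether the Hspe1 and Hspd1 differences differ from each other was not tested. Across the 12 libraries the 2 genes correlated with r = -0.11 (permutation p = 0.739, adjusted over 37 pairs 0.900) and rho = -0.19 (p = 0.561, adjusted 0.821). Without the 2 libraries farthest from the median of Hspd1, r was 0.51. The gene bodies share 112 bases on opposite strands in the annotation, and whether counting used strand is not given in the sources used here.

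Of the 10 mitochondrial members 5 were below 0 over both sexes, with a median of -0.001. Hspa9, the mitochondrial HSP70 of protein import, differed by 0.01 ± 0.04 and Dnaja3, its J-domain partner, by 0.01 ± 0.04. Dnajc19 and Dnajc15, J-domain proteins of the import motor, differed by -0.09 ± 0.07 and -0.01 ± 0.06. Dnajc28 differed by -0.12 ± 0.08, Dnajc4 by -0.08 ± 0.11, Dnajc30 by 0.04 ± 0.05 and Dnajc11, a protein of the cristae junction complex, by 0.06 ± 0.05.

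Dnajc27 was the member with the smallest p over both sexes and the only one that lay clear of WT in both sexes in the same direction. Dnajc27 (ENSMUSG00000020657, chromosome 12, 4082583 to 4110606, plus strand) encodes a small GTPase of the Rab type with a J domain. Its log2 level was 5.34, 5.32 and 5.33 in WT females 1 to 3 and 5.51, 5.48 and 5.39 in AS females 1 to 3. It was 5.39, 5.41 and 5.37 in WT males 1 to 3 and 5.58, 5.50 and 5.56 in AS males 1 to 3. Within each sex all AS libraries were higher than all WT libraries, a pattern that 0.750% of genes shared in either direction.

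The Dnajc27 difference was 0.14 ± 0.04 over both sexes (adjusted p = 0.661), or 10.3% in abundance + 1, with 0.13 ± 0.05 in females and 0.16 ± 0.05 in males. It lay between 0.13 and 0.16 with any 1 library left out and at 0.15 without the 4 libraries high in choroid plexus genes. Its small within-group SD of 0.039 is below that of all but 0.556% of genes. The other members of synapse and membrane traffic differed less: Dnajc5, which encodes the synaptic vesicle protein CSPα, by 0.03 ± 0.04, Dnajc6 by -0.02 ± 0.03, and Dnajc13, an endosomal protein, by 0.04 ± 0.06.

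Dnajc12, a J-domain partner of HSP70 for the amino acid hydroxylases that make serotonin and dopamine, differed in opposite directions in the sexes. Dnajc12 (ENSMUSG00000036764, chromosome 10, 63382443 to 63410576, plus strand) had log2 levels of 3.60, 3.65 and 3.91 in WT females 1 to 3 and 3.43, 3.29 and 3.37 in AS females 1 to 3. Its log2 levels were 3.41, 3.35 and 3.64 in WT males 1 to 3 and 3.70, 3.67 and 3.70 in AS males 1 to 3. AS females lay below WT females and AS males above WT males, with no overlap in either sex, a pattern of 0.455% of genes.

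The Dnajc12 difference was -0.36 ± 0.10 in females (adjusted p = 1.00) and 0.23 ± 0.10 in males (adjusted p = 0.763). The interaction, male minus female, was 0.59 ± 0.14 with an interval of 0.28 to 0.89 (adjusted p = 0.987). It lay between 0.49 and 0.67 with any 1 library left out and at 0.75 without the 4 libraries high in choroid plexus genes. For the interaction 0 of 58 members passed, as did 0% of all genes, and Dnajc12 alone had an unadjusted p under 0.05, against 3.77% of genes.

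**Figure D4:**
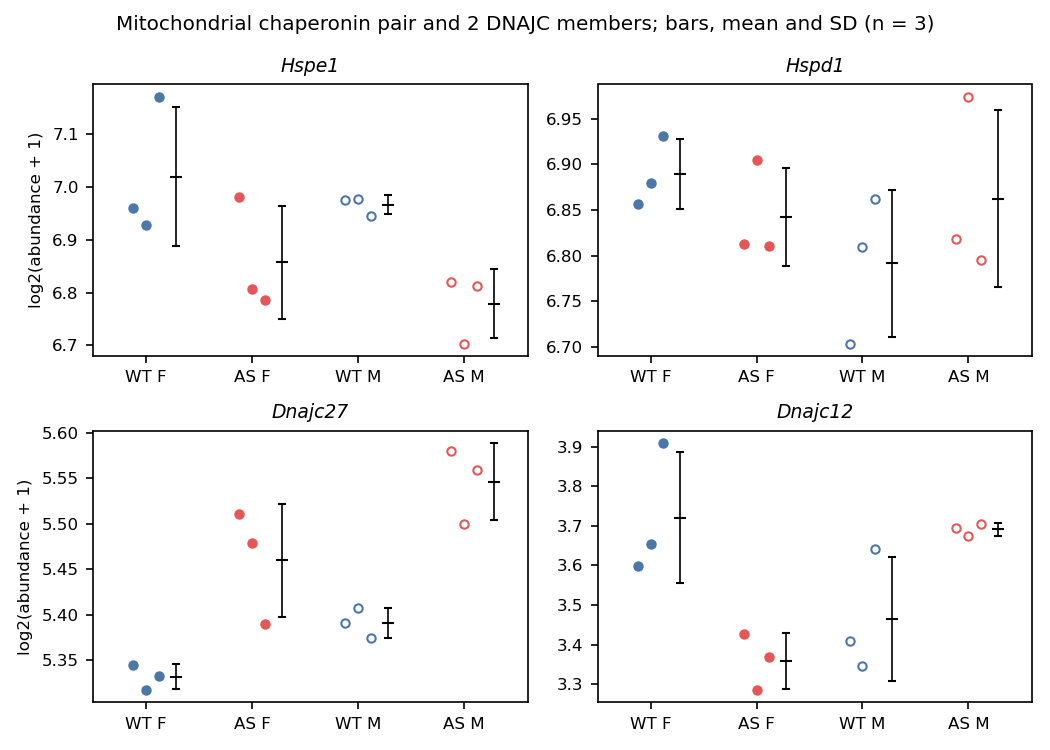
Log2 levels of Hspe1, Hspd1, Dnajc27 and Dnajc12, 1 point per library, with mean and SD (n = 3) beside each group; filled points are females, open points males, blue WT and red AS. Dnajc27 is higher in AS in both sexes, Dnajc12 is lower in AS females at 3.29 to 3.43 and higher in AS males at 3.67 to 3.70, and Hspd1 overlaps where Hspe1 in males does not.

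The remaining DNAJC members showed no common direction. Of the 8 other DNAJC members 4 were below 0 over both sexes, with a median of -0.01. Dnajc7, a constitutive partner of HSP70 and HSP90, differed by 0.01 ± 0.05. Dnajc17, a J-domain protein of the nucleus, differed by 0.13 ± 0.09 (adjusted p = 0.933), the second largest difference in the higher direction. Of the 11 members of the endoplasmic reticulum 3 were below 0, with a median of 0.02. The largest of these were Dnajc3, an inhibitor of the kinases PERK and PKR, at -0.15 ± 0.12, Hspa13 at 0.10 ± 0.07, and Dnajb12 at 0.09 ± 0.07.

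The sexes were also taken apart. In females 0 of 58 members passed, as did 0% of genes, and 2 had an unadjusted p under 0.05, Dnajc12 and Dnajc27, against 3.16% of genes. Of the 58, 36 were lower in AS females, against 48.4% of genes, and the inducible members were lower in 9 of 9 cases with a median of -0.09. AS and WT females did not overlap in 6 members, against 9.01% of genes: Dnajc10, Dnajc12 and Dnajc28 were lower and Dnajc11, Dnajc14 and Dnajc27 higher. This count and the 2 at an unadjusted p under 0.05 lie near the shares over all genes. The 36 lower members (62.1%) lie above the share of lower genes. Dnajc10, an oxidoreductase of the endoplasmic reticulum, differed by -0.18 ± 0.08, Dnajc28 by -0.24 ± 0.12, Dnajc11 by 0.13 ± 0.07 and Dnajc14 by 0.08 ± 0.07. The value of Dnajc28 was -0.09 without WT female 3 and -0.52 without the 4 libraries high in choroid plexus genes. The latter compares AS females with WT female 3 alone, the highest WT female for Dnajc28 at 3.44.

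In males 0 of 58 members passed, as did 0% of genes, and 5 had an unadjusted p under 0.05, Hspb1, Hspa1b, Hspe1, Dnajc27 and Dnajc12, against 6.42% of genes. Of the 58, 26 were lower in AS males, against 47.6% of genes, and the inducible members were lower in 7 of 9 cases with a median of -0.02. AS and WT males did not overlap in 6 members, against 11.2% of genes: Hspe1 and Hspa1b were lower and Dnajc12, Dnajc17, Dnajc27 and Hspa13 higher. Dnajc17 differed by 0.23 ± 0.12 and Hspa13, an HSP70 of microsomes, by 0.14 ± 0.10. The Hspa13 value was 0.03 without AS male 2, the only male library high in choroid plexus genes, and 0.21 without AS male 1. Of these male counts, 26 of 58 lower (44.8%) and 6 of 58 without overlap lie near the shares over all genes. The 5 of 58 at an unadjusted p under 0.05 lie somewhat above the share. The 7 of 9 inducible members lower (77.8%) lie above the share of lower genes. These genes were measured in the same libraries and were not tested as a class, so the count alone decides nothing. Some of the 7 lie near 0, such as Dnajb4 at -0.0050 and Hsp90aa1 at -0.017, while Hspb1 and Hspa1b had an unadjusted p under 0.05.

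**Figure D5:**
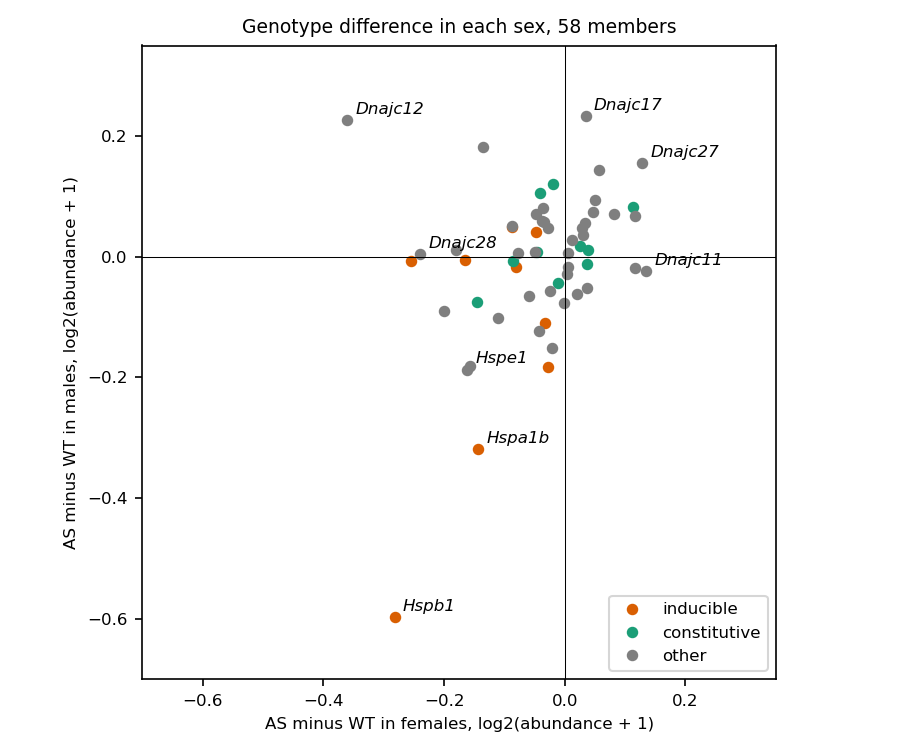
AS minus WT in females (horizontal) against males (vertical), 1 point per member, on the log2(abundance + 1) scale, coloured by class. Hspb1, at -0.28 and -0.60, and Hspa1b, at -0.14 and -0.32, lie furthest toward the lower left, Dnajc27 lies at the upper right, and Dnajc12 lies at the upper left.

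Between the sexes, with genotypes averaged, 0 of 58 members passed, against 0.0361% of genes. At an unadjusted p under 0.05 there were 2, Dnajc1 and Dnajc15, both lower in males, against 6.91% of genes. Dnajc1, a J-domain gene of the endoplasmic reticulum and ribosome, differed by -0.21 ± 0.08 (adjusted p = 0.695). Its highest library was WT female 1 at 3.79, and without that library the difference was -0.14. Dnajc15 differed by -0.15 ± 0.06 (adjusted p = 0.699). Of the 58, 36 were lower in males, against 47.7% of genes.

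Whether inducible members varied together was examined over the 12 libraries for their 36 pairs, with Hspd1 and Hspe1 as the 37th. Group means were left in, so these values mix differences between groups with those between mice of a group. Of the 37 pairs 19 had an r above 0. The pair Hsp90aa1 and Dnajb4 had r = 0.82 (permutation p = 0.00132, adjusted 0.0488) and rho = 0.72 (p = 0.0107, adjusted 0.185), so it passed by r and not by rho. Its r was 0.77 without the 2 libraries farthest from the median of Hsp90aa1 and 0.90 over the 8 libraries low in choroid plexus genes. After group means were subtracted it was 0.85. By rho 0 pairs passed. Hspa1a and Hspa1b had r = 0.56 (permutation p = 0.0609, adjusted 0.282) and rho = 0.49 (p = 0.110, adjusted 0.446). Their r fell to 0.38 without the 2 libraries farthest from the median of Hspa1a, and also to 0.38 after group means were subtracted.

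The regulators and co-chaperones of the pathway were taken from a list of heat shock factors, HSP70 and HSP90 co-chaperones and mitochondrial partners, of which 37 of 40 were tested. Over both sexes 20 of the 37 were below 0, with a median of -0.02, 0 passed, and Ahsa2 alone had an unadjusted p under 0.05. Ahsa2, a relative of the main HSP90 activator, differed by -0.18 ± 0.07 (adjusted p = 0.893). The next on the lower side were the heat shock factor genes Hsf1 at -0.06 ± 0.04 and Hsf4 at -0.13 ± 0.09, and Clpx, of a mitochondrial protease, at -0.09 ± 0.07. On the higher side stood Hscb, a J-domain protein of iron-sulfur cluster assembly, at 0.15 ± 0.07, and the exchange factors Bag4 at 0.11 ± 0.05 and Bag5 at 0.08 ± 0.06.

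Hsf1, which encodes the factor that drives inducible members, went opposite ways in the sexes. Its log2 level was 4.08, 4.11 and 4.01 in WT females 1 to 3 and 4.13, 4.12 and 4.22 in AS females 1 to 3. It was 4.26, 4.26 and 4.23 in WT males 1 to 3 and 4.07, 3.96 and 4.06 in AS males 1 to 3. AS libraries lay above WT in females and below WT in males, with no overlap. The difference was 0.09 ± 0.06 in females and -0.22 ± 0.06 in males (adjusted p = 0.748), and the interaction was -0.31 ± 0.09 (adjusted p = 0.987). Hscb had the reverse pattern, with -0.17 ± 0.10 in females, 0.48 ± 0.10 in males (adjusted p = 0.748) and an interaction of 0.65 ± 0.14 (adjusted p = 0.987).

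Transcripts that follow temperature, activity or time of day were read beside the heat shock genes. The cold-inducible genes Cirbp and Rbm3 differed by 0.17 ± 0.08 and 0.28 ± 0.14 over both sexes (adjusted p = 0.914 for each), with Rbm3 at 0.47 ± 0.20 in males. Their mean log2 level was 5.61 to 6.05 in WT and 5.80 to 6.27 in AS libraries. The mean of 12 immediate early genes ran from 2.81 to 3.77 in WT and 2.38 to 3.78 in AS libraries. In females 12 of 12 were above 0, with a median difference of 0.17, and in males 11 of 12 were below 0, with a median of -0.27. None of them passed the test in either sex. The mean of 13 circadian genes ran from 4.03 to 4.28 and 4.01 to 4.17. Their part in the heat shock values was not tested.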

How the data were processed

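The authors deposited 1 table of normalized values for 13951 Ensembl genes in 12 libraries, read here as the natural log of an RSEM abundance plus 1. Per the submitters' processing notes, Trimmomatic, Bowtie2 and RSEM were used with GRCm38 (mm10), without versions. The log base, the abundance unit (TPM or FPKM), filter and normalization are not given in the sources used here. The values give no counts, so the depth is unknown and no counting interval can be given.

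Values were converted to log2(abundance + 1). A minimum mean abundance of 1 removed 93 genes and kept 13858. GENCODE (GRCm38) gave symbols, for 13735 identifiers, and coordinates. The 12 libraries entered 1 limma model (3.58.1, R 4.3.3) with a mean per group, trended moderated variances and 8 residual degrees of freedom. The model was also run on simulated data with changes of at least 1 log2 unit. Such changes exceed every member difference given here, so that run does not show the power at these sizes. The 5 contrasts were AS minus WT over both sexes, in females and in males, the interaction, and male minus female. A call needed an adjusted p (Benjamini-Hochberg, all 13858 genes) below 0.05. Errors of differences are the model's standard errors, and 95% intervals are given. Nothing in the labels beyond 1 library per mouse describes replication.

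The members and lists were chosen with earlier results of these data known, and the sources of the inducible and constitutive lists are general knowledge. Named are all inducible, constitutive and mitochondrial members, the 5 members per direction with the smallest p over both sexes, 3 per direction in the other contrasts, and 4 per direction of the regulator list, of which 1 is not reported here. Other names (Hspa1l, Hspa4l, Hspb6, Hspa12b, Dnajb12, Dnajc3, Dnajc6, Dnajc13, Cirbp and Rbm3) were added after their values were seen. Pair correlations used Pearson's r and Spearman's rho with 100000 permutations (two-sided) in scipy 1.17.1, with Benjamini-Hochberg adjustment over 37 pairs. Libraries were permuted without regard to group. Promoters came from a RefSeq table on GRCm38.p6. Alternatives were another added constant (0.25), no filter, a minimum of 5, base 2, a robust prior, library quality weights, quantile normalization again, choroid plexus genes as a covariate or their 4 highest libraries left out, only the groups compared, and each library left out.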

Additional observations from a re-analysis of the deposited data

Results flagged for a closer look

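The genotype difference of 3 genes ran in opposite directions in females and males, with all AS libraries on one side of all WT libraries in each sex. Dnajc12, the member among them, had an interaction (male minus female) of 0.59, and 0.455% of all genes had such a pattern. The regulator Hsf1 had an interaction of -0.31 and the J-domain gene Hscb one of 0.65. By limma none of these interactions passed over all genes tested (adjusted p = 0.987 for each), and no gene did. Over the alternatives the interaction of Dnajc12 stayed above 0 and that of Hsf1 below 0.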

How the results depend on the processing

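No paired analysis was possible because the labels give no replicate numbers, and the numbers used here follow accession order. Of the 22 alternatives, the one with only the groups compared fitted the female and male contrasts alone. In each contrast 0 members passed under the alternatives that fitted it. The fit without the 4 libraries high in choroid plexus genes keeps 1 WT female and is left aside in that count. Members at an unadjusted p under 0.05 numbered 3 to 8 over both sexes, 2 to 5 in females, 2 to 6 in males, 1 to 2 for the interaction and 0 to 8 between the sexes. The median difference of the inducible members over both sexes ran from -0.13 to -0.05, with 7 to 9 below 0. With no read counts deposited, the precision of low members such as Hspa1a, Hspa12b and Hspb6 is unknown.

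Of 78 single-gene values 14 changed direction in at least 1 alternative; their sizes in the model used above were at most 0.14, and the cause was not tested. Without the 4 libraries high in choroid plexus genes the differences over both sexes became 0.0064 for Dnajb1, 0.086 for Dnajc4, 0.0074 for Hsf4, 0.0042 for Hspa1a, -0.10 for Hspa4, -0.0078 for Hspa9 and -0.052 for Hspd1, and in females -0.024 for Hspa12a and 0.074 for Hspa1b. With library quality weights they became 0.018 for Dnajb1, 0.0074 for Dnajc4, -0.017 for Dnajc7, 0.0020 for Hspa8 and -0.00888 for Hspd1, and with quantile normalization again 0.048 for Hspa8. With 1 library left out the difference over both sexes ran from -0.037 to 0.026 for Dnaja1, -0.0065 to 0.030 for Dnaja3, -0.070 to 0.012 for Dnajb1, -0.057 to 0.029 for Dnajc15, -0.14 to 0.018 for Dnajc4, -0.023 to 0.052 for Dnajc7, -0.0086 to 0.071 for Hspa4, -0.052 to 0.020 for Hspa8, -0.0044 to 0.021 for Hspa9 and -0.016 to 0.030 for Hspd1. Without the same 4 libraries other differences over both sexes moved by over 1.5 times and kept their direction, among them Dnajb4 to -0.20, Dnajb2 to -0.19, Hsph1 to -0.12, Dnaja4 to -0.11, Dnajc28 to -0.28, Dnajc19 to -0.0054, Dnajc11 to 0.02, Dnajc15 to -0.10, Dnajc17 to 0.20, Hspa13 to 0.0031, Hspa2 to 0.13, Hspa12a to 0.05 and Hsf1 to -0.0057. Smaller values moved likewise: Dnaja1 to -0.065, Dnaja2 to -0.042, Dnaja3 to 0.055, Dnajb6 to -0.073, Dnajc7 to 0.032 and Hsp90ab1 to 0.0075. With 1 library left out Dnajc17 ran from 0.07 to 0.18, Dnajb2 from -0.17 to -0.04, Hspa2 from 7.6e-05 to 0.10 and Hspa13 from 0.04 to 0.14.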
